A study of Mus musculus with 9 samples.

Results

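Chemokines are small secreted proteins that steer white blood cells, and the genes for chemokines and their receptors were examined in the left ventricle of mice with and without delta-sarcoglycan. A gene was a member where its symbol began with Ccl, Cxcl, Ccr, Cxcr, Ackr, Cx3cl or Cx3cr followed directly by a digit, and where it had a rounded count of at least 5 in at least 2 of 9 libraries. Of 20634 genes in the deposited data, 46 with such a symbol are covered here and 42 were kept. The 4 that were dropped are the receptor genes Ccr3, Ccr6, Ccr9 and Ccr10. The members are 29 ligand genes, 9 signalling receptor genes and 4 atypical receptor genes. Of the 42, 36 had enough counts to be tested, and Ccl4, Ccl5, Ccl22, Ccl28, Cxcl3 and Cxcr3 did not.

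A chemokine forms a gradient on the surface of vessels and matrix, and a cell that carries the matching receptor crawls along it. The signalling receptors span the membrane and couple to inhibitory G proteins, while the atypical receptors bind chemokines without that coupling and take them up. In the heart the pair of Ccl2 and Ccr2 is known for bringing monocytes from blood into injured muscle, CXC ligands of the Cxcl1 and Cxcl5 kind for attracting neutrophils, and Cxcl12 for holding progenitor and immune cells in place.

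RNA-seq was carried out on left ventricles of C57BL/6 mice aged 6 months that had running wheels at intervals to bring on cardiomyopathy, and whose hearts had been perfused with PBS. The design crossed genotype, wild type (WT) or knockout (KO) of the delta-sarcoglycan gene Sgcd, with treatment from weaning, plain drinking water (vehicle) or water with the thromboxane-prostanoid receptor antagonist ifetroban at 25 mg/kg/day. WT mice gave 2 libraries with vehicle and 2 with ifetroban, and KO mice gave 2 with vehicle and 3 with ifetroban, named here by group and replicate number. The labels do not state that each library came from its own mouse, so the p-values measure the spread between these libraries. The labels describe a plain knockout and name no promoter or Cre that would limit it to a tissue.

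Total counts ran from 21510263 to 30182955 per library. Levels are given as CPM, counts put on a common library size with TMM factors, and differences are log2 fold changes ± SE. Sgcd was at 8.36 and 20.9 CPM in WT vehicle, 23.7 and 23.5 in WT ifetroban, 9.64 and 8.63 in KO vehicle, and 7.30, 12.9 and 13.3 in KO ifetroban. The library labelled WT vehicle 1 thus lay within the range of the KO libraries, and Sgcd differed between genotypes by -0.90 ± 0.25 (adjusted p = 0.101, edgeR quasi-likelihood test). The sources used here do not say which part of Sgcd is deleted, and the direction of every genotype difference rests on the labels. For KO ifetroban 1 the title and source name give ifetroban, and the treatment field gives vehicle. The libraries also fell into 2 sets by how a library's deviation from the mean level related to transcript length over 13051 genes, with a rank correlation of -0.40 to -0.52 in WT vehicle 1, KO vehicle 1, KO vehicle 2 and KO ifetroban 1 and of 0.38 to 0.43 in the other 5.

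Over both treatments, 5 of the 36 tested members were past the threshold for genotype (adjusted p under 0.05 over all genes tested), all higher in KO, which is 13.9% of the members. Of all 15549 genes tested, 2.33% were past it, 2.06% higher in KO and 0.27% lower. The 5 were the ligand genes Ccl12, Ccl8, Cxcl5 and Cxcl16 and the receptor gene Ccr2. The log2 change was positive for 30 of 36 members, with a median of 0.81, against 47.0% of all genes and a median of -0.02. At an unadjusted p under 0.05 there were 20 members, all higher in KO, or 55.6%, against 16.1% of all genes. Of the tested members, 10 had at least 2 KO and fewer than 2 WT libraries at the count floor of the filter (Ackr1, Ccl3, Ccl17, Ccl19, Ccr7, Cxcl2, Cxcl5, Cxcl13, Cxcr2 and Cxcr6), so counts and medians over tested members are a description. For 10 members every KO library lay above every WT library, or 27.8%, against 4.62% of all genes, and no member lay wholly below, against 2.38%. These 10 were Ccl2, Ccl8, Ccl12, Ccl17, Ccl21a, Ccr1, Cxcl5, Cxcl14, Cxcl16 and Cxcr6. In bulk tissue, fewer cells of a type and less RNA per cell cannot be told apart.

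**Figure D1:**
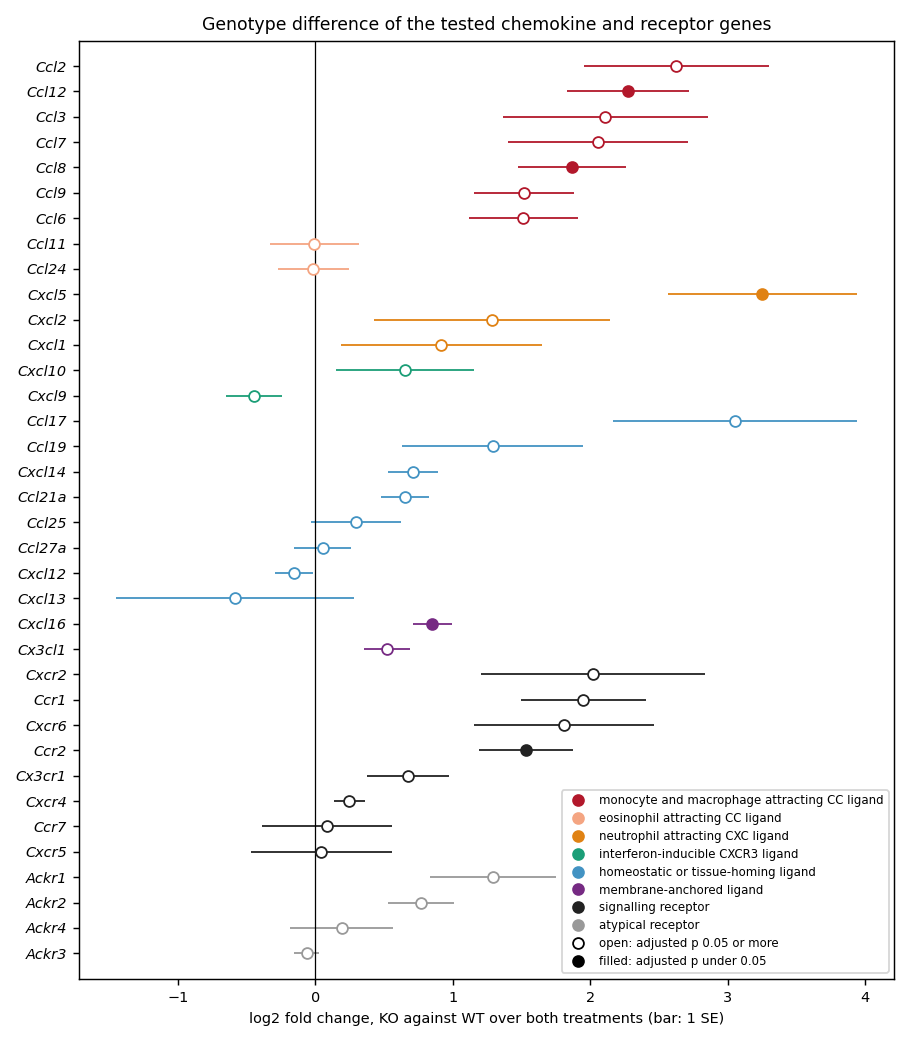
Log2 fold change of KO against WT over both treatments (x axis) for the 36 tested genes, grouped and coloured by role, with bars of 1 SE and filled points where the adjusted p was under 0.05. All 7 tested ligands of monocytes and macrophages lie right of 0, between 1.51 and 2.62, and the 5 filled points all lie right of 0. Ccl3 among the 7 passed the count filter through its KO libraries.

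Markers of other cell types moved with genotype. All 12 macrophage and monocyte markers had a positive change and 9 rose, with a summed level of 232 to 327 CPM in WT and 500 to 571 in KO. None of the 12 was at 0 in any library. The 6 neutrophil markers in the data were all positive with 0 past the threshold. Their summed level was 2.71 to 9.90 CPM in WT and 8.88 to 24.4 in KO, highest in KO ifetroban 1, and Retnlg was at 0 in some libraries. Mmp8 and Retnlg passed the count filter through their KO libraries, so the count of positive signs is a description. The 8 fibroblast markers were all positive and 3 rose, at 834 to 999 CPM in WT and 1152 to 1684 in KO. The lymphocyte markers were low in both arms (2.26 to 4.58 CPM in WT, 3.04 to 4.51 in KO), with Cd3d, Cd8a, Nkg7 and Ncr1 at 0 in some libraries. Cardiomyocyte markers summed to 49456 to 57363 CPM in WT and 41355 to 50957 in KO, so the defining markers of ventricle muscle were abundant in every library. Of the 6 lymphatic endothelial markers 3 had a positive change, with a median of 0.09, and only Pdpn rose. Their summed level was 111 to 187 CPM in WT and 127 to 168 in KO. The lists for dendritic cells, eosinophils and mast cells, endothelium, smooth muscle and pericytes, mesothelium, and red cells and platelets had 0 markers past the threshold. Only 3 of 7 dendritic cell markers and 3 of 6 eosinophil and mast cell markers were tested. The part of these cell types in the chemokine differences was not tested.

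The count of 5 changed with single libraries. It was 0 without WT ifetroban 2 or KO vehicle 1, 1 without WT vehicle 2, 2 without WT ifetroban 1 or KO ifetroban 2, and 4 to 6 without any of the other 4. With any 1 library left out, Cxcl16 passed in 7 of 9 cases, Cxcl5 in 4, Ccl12 and Ccl8 in 3 each and Ccr2 in 2, and the log2 change of all 5 stayed positive. Cxcl5 and Ccr2 did not pass with KO ifetroban 1 counted as vehicle, with the length relation as a term, or with no low-count filter. Cxcl16, Ccl12 and Ccl8 passed in each of these settings. With WT vehicle 1 and KO ifetroban 1 both left out, a choice made after seeing the data, 7 members passed, all higher in KO and Ccr2 not among them, against 3.34% of all genes. The libraries left with a negative length relation were then all KO vehicle. The DESeq2 Wald test called 11 members, against 5.76% of all genes, and limma-voom 2, against 2%, all of these members higher in KO.

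The CC ligands that attract monocytes and macrophages were estimated higher in KO throughout. All 7 tested had a positive genotype change over both treatments, from 1.51 to 2.62 with a median of 2.05, and 2 of them passed the threshold. Ccl3 among the 7 passed the count filter through its KO libraries, so this count and median are a description. Of the 7 genes, 4 lie within 81.23 kb at chr11:82035571-82116799 (mm10), in the order Ccl2, Ccl7, Ccl12, Ccl8, with the eosinophil ligand Ccl11 between Ccl7 and Ccl12. Ccl12, which encodes a mouse ligand of Ccr2, and its neighbour Ccl8 are the 2 that passed, and the 100 bases before their start sites are shown because both genes rose and both hold a TATA box close to the start. RefSeq promoters were on hand for 32 of the 42 members. The sequences are RefSeq's for GRCm38.p6, the assembly behind mm10, from the plus strand of chr11:82101745-82101844 and chr11:82115085-82115184, with the TATA box letters TATAAA in capitals.
Ccl12: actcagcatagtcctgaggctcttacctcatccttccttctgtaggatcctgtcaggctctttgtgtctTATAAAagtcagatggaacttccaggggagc
Ccl8: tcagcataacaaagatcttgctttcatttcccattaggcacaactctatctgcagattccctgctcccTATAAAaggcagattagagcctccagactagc
TATAAA, searched on both strands of the 250 bases before the start, was present in 11 of the 32 members and in 12.4% of 32851 mouse promoters.

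Ccl12 was at 1.13 and 0.243 CPM in WT vehicle, 0.929 and 0.4996 in WT ifetroban, 3.68 and 2.97 in KO vehicle, and 4.91, 3.75 and 1.45 in KO ifetroban. Every KO library was above every WT library, and the closest pair was KO ifetroban 3 and WT vehicle 1. The genotype change over both treatments was 2.27 ± 0.44 (adjusted p = 0.0274, edgeR quasi-likelihood test).

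Ccl8, of the same family, is grouped here with the monocyte ligands, and which cells it attracts was not tested. It was at 0.769 and 0.567 CPM in WT vehicle, 1.29 and 0.291 in WT ifetroban, 2.20 and 3.29 in KO vehicle, and 1.73, 2.32 and 3.87 in KO ifetroban. The 2 arms did not overlap, and KO ifetroban 3 and KO vehicle 2 were the highest. Its change was 1.87 ± 0.39 (adjusted p = 0.0357).

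Ccl2, the main ligand of Ccr2, was at 2.31 and 1.82 CPM in WT vehicle, 1.74 and 1.67 in WT ifetroban, 12.1 and 2.93 in KO vehicle, and 32.3, 12.8 and 4.32 in KO ifetroban. All 4 WT libraries stayed within a narrow band, while the KO libraries spread from 2.93 to 32.3 and did not reach down to it. The change of 2.62 ± 0.67 had an adjusted p of 0.0867, so the difference did not pass. Ccl7, a further Ccr2 ligand, showed the same order of KO libraries, and it was at 3.80 and 1.30 CPM in WT vehicle, 1.62 and 1.17 in WT ifetroban, 8.05 and 2.77 in KO vehicle, and 19.9, 8.77 and 3.23 in KO ifetroban. WT vehicle 1 lay above KO vehicle 2 and KO ifetroban 3, and the change was 2.05 ± 0.65 (adjusted p = 0.158).

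A second run of CC ligand genes lies at chr11:83525778-83664683 and holds Ccl5, Ccl9, Ccl6, Ccl3 and Ccl4. Ccl6, a ligand of Ccr1 made by myeloid cells, was at 16.5 and 7.65 CPM in WT vehicle, 12.2 and 6.91 in WT ifetroban, 35.99 and 16.0 in KO vehicle, and 57.7, 23.1 and 23.4 in KO ifetroban. KO vehicle 2 lay just below WT vehicle 1, and KO ifetroban 1 was the highest. The change was 1.51 ± 0.40 (adjusted p = 0.0843). Ccl9, which also acts on Ccr1, was at 10.1 and 5.43 CPM in WT vehicle, 6.14 and 4.45 in WT ifetroban, 20.8 and 10.04 in KO vehicle, and 33.3, 14.2 and 14.9 in KO ifetroban. KO vehicle 2 again lay just below WT vehicle 1, and the change was 1.51 ± 0.36 (adjusted p = 0.0615). Ccl3 was low, between 0 and 0.359 CPM in WT and between 0.161 and 0.889 in KO, with a change of 2.11 ± 0.75 (adjusted p = 0.195).

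**Figure D2:**
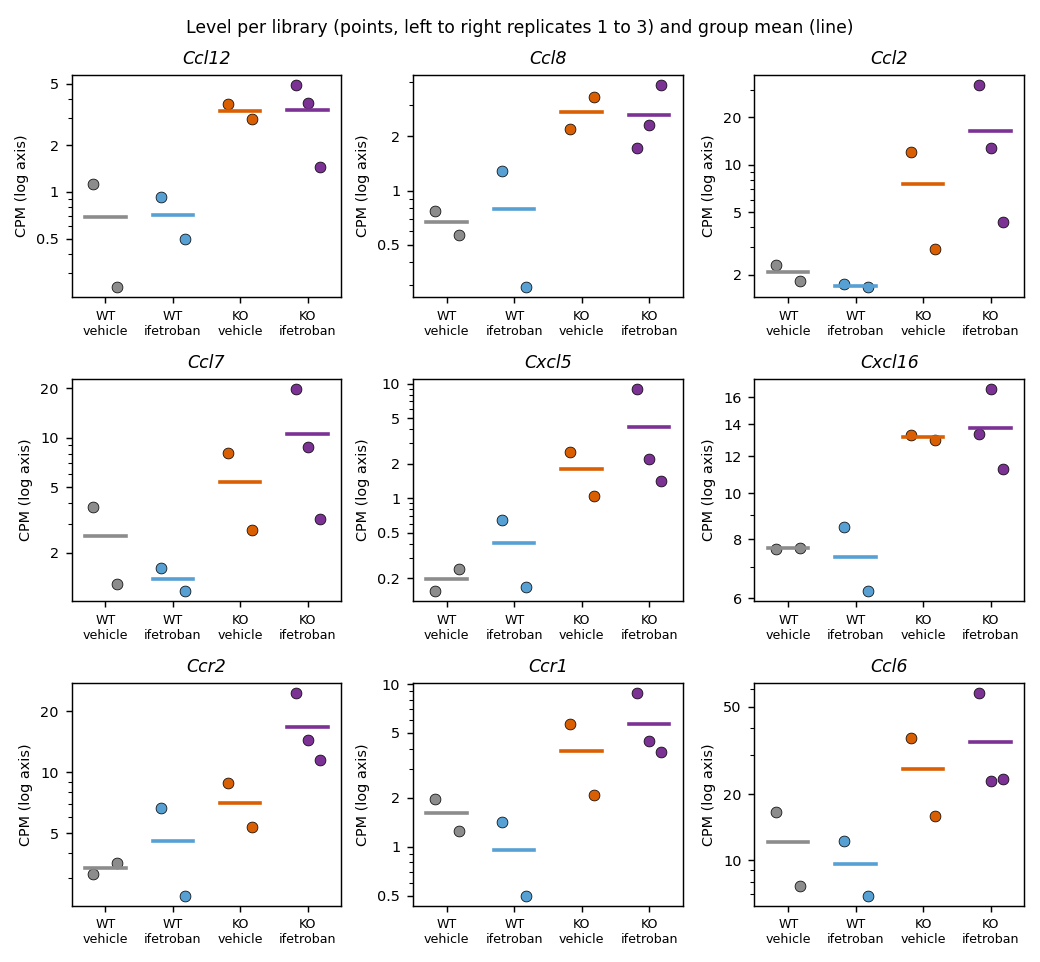
Level of 9 genes in each library (points, CPM on a log axis, replicates from left to right) with group means (lines), for the 4 groups on the x axis. The KO libraries sit above the WT libraries in the panels of Ccl12, Ccl8, Ccl2, Cxcl5, Cxcl16 and Ccr1, while Ccr2, Ccl7 and Ccl6 overlap.

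Among the neutrophil-attracting CXC ligands, Cxcl5 rose and the others did not pass. These 4 genes lie together at chr5:90759360-90905938. Cxcl5, a ligand of Cxcr2, was at 0.154 and 0.243 CPM in WT vehicle, 0.646 and 0.167 in WT ifetroban, 2.54 and 1.04 in KO vehicle, and 8.99, 2.19 and 1.41 in KO ifetroban. KO ifetroban 1 stood far above every other library, and without it the remaining KO libraries were still all above WT. The change was 3.25 ± 0.68 (adjusted p = 0.0364). The gene passed the count filter through its KO libraries, and with no low-count filter the adjusted p was 0.0504. Cxcl1, the mouse counterpart of the human growth-regulated oncogenes, was at 9.64 and 1.66 CPM in WT vehicle, 1.53 and 1.37 in WT ifetroban, 8.96 and 2.41 in KO vehicle, and 10.9, 2.80 and 2.30 in KO ifetroban. It was high in WT vehicle 1, KO vehicle 1 and KO ifetroban 1 and low in the other 6 libraries, so both genotypes held high libraries (0.92 ± 0.73, adjusted p = 0.574). Cxcl2, a close relative, was below 0.25 CPM in 5 libraries, at 0.731 in KO ifetroban 2, at 1.08 in WT vehicle 1 and 1.10 in KO vehicle 1 and at 2.57 in KO ifetroban 1 (1.28 ± 0.86, adjusted p = 0.495). Cxcl3 had 0 counts in the 4 WT libraries and 34 in the 5 KO libraries pooled, at least 8.18-fold higher against a floor of 3 counts over the WT group. Of the 34, 21 came from KO ifetroban 1, with 5 and 1 in KO vehicle and 5 and 2 in KO ifetroban 2 and 3. The gene was kept through KO counts alone and was not tested.

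Cxcl1 and Cxcl2 shared their 3 highest libraries, and 100 bases before each gene hold the same stretch matching the NF-kappaB consensus on both strands. These windows end where the deposited gene begins, 4 bases before the RefSeq start for Cxcl1 and 28 before it for Cxcl2, while motifs were counted in the 250 bases before the RefSeq start. They are shown for that shared stretch, in capitals, from the plus strand of chr5:90891141-90891240 and chr5:90903771-90903870.
Cxcl1: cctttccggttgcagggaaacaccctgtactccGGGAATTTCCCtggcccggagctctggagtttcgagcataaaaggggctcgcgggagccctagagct
Cxcl2: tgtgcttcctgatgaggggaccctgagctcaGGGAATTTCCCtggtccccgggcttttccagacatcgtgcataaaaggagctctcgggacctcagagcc
The consensus was present in 7 of the 32 members (Ackr2, Ccl9, Ccr1, Cxcl1, Cxcl2, Cxcl3 and Cxcl10) and in 7.25% of all promoters of the same length. Cxcl3 holds the same stretch as Cxcl1 and Cxcl2, and it had 0 counts in WT vehicle 1, where those 2 genes were high. A match is a description of letters, and binding was not measured.

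The 2 membrane-anchored ligands are made with a stalk that holds them on the cell surface until it is cut. Cxcl16, the ligand of Cxcr6 and a scavenger receptor for lipids, was at 7.64 and 7.65 CPM in WT vehicle, 8.48 and 6.20 in WT ifetroban, 13.3 and 13.0 in KO vehicle, and 13.3, 16.7 and 11.3 in KO ifetroban. The spread within a genotype was small, with 6.20 to 8.48 CPM in WT and 11.3 to 16.7 in KO. Its change of 0.85 ± 0.14 had the smallest adjusted p of all members (0.0170, edgeR quasi-likelihood test). Cx3cl1, also called fractalkine, was at 8.67 and 13.2 CPM in WT vehicle, 10.1 and 13.6 in WT ifetroban, 20.6 and 14.5 in KO vehicle, and 13.3, 17.3 and 15.9 in KO ifetroban. KO ifetroban 1 at 13.3 lay below WT ifetroban 2 at 13.6, and the change was 0.52 ± 0.17 (adjusted p = 0.158).

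All 8 tested signalling receptor genes had a positive genotype change over both treatments, with a median of 1.10, and Ccr2 passed. With KO ifetroban 1 counted as vehicle it was 7 of 8. Under vehicle alone it was 6 of 8, with Ccr7 at -0.93 and Cxcr5 at -0.97. Ccr7, Cxcr2 and Cxcr6 passed the count filter through their KO libraries. Ccr2, the receptor of Ccl2, Ccl7 and Ccl12 on classical monocytes, was at 3.13 and 3.56 CPM in WT vehicle, 6.66 and 2.46 in WT ifetroban, 8.81 and 5.34 in KO vehicle, and 24.7, 14.4 and 11.5 in KO ifetroban. The arms overlapped by 1 pair, since WT ifetroban 1 was above KO vehicle 2. The change was 1.53 ± 0.34 (adjusted p = 0.0471). Its count was not whole in 2 libraries, as was also the case for Ackr1 in 1, Cxcl12 in 6, Ccl27a in 7 and Ccl19 and Ccl21a in 9, and the way reads were counted is not stated.

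The genes Ccr1, Ccr2 and Cxcr6 lie within 307.1 kb at chr9:123806477-124113557, and all 3 changes were positive. Ccr1, the receptor of Ccl3, Ccl5, Ccl6 and Ccl9 on myeloid cells, was at 1.95 and 1.26 CPM in WT vehicle, 1.41 and 0.4996 in WT ifetroban, 5.69 and 2.09 in KO vehicle, and 8.80, 4.48 and 3.83 in KO ifetroban. Its lowest KO library, KO vehicle 2, was just above the highest WT library, WT vehicle 1. The change of 1.95 ± 0.45 missed the threshold (adjusted p = 0.0539). Cxcr6, the receptor of Cxcl16 on T cells, reached 2.01 CPM in KO ifetroban 1, with 0.342 to 0.699 in the other KO libraries and 0.0833 to 0.308 in WT (1.81 ± 0.66, adjusted p = 0.205).

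Ccr1 and its ligand gene Ccl9 both hold an NF-kappaB consensus match close to the start, and their 100 bases are shown to set the 2 matches side by side. They are read from the minus strand of chr9:123968693-123968792 and chr11:83578637-83578736, with the matches in capitals, and Ccl9 also has capitals at a TATA box match and at an AP-1 site, TGANTCA.
Ccr1: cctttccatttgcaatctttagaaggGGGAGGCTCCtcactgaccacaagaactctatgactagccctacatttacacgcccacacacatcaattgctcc
Ccl9: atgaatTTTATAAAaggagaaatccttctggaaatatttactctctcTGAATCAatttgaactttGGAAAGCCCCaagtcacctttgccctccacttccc
The AP-1 site was present in 3 of the 32 members and in 6.75% of all promoters, and the STAT site TTCNNNGAA in 2 members and 7.02%, each searched on both strands.

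Cx3cr1, the receptor of Cx3cl1 on patrolling monocytes and resident macrophages, was at 1.90 and 5.59 CPM in WT vehicle, 3.92 and 4.16 in WT ifetroban, 7.33 and 3.45 in KO vehicle, and 6.79, 8.29 and 6.18 in KO ifetroban. The arms overlapped (0.68 ± 0.30, adjusted p = 0.297). Cxcr4, the receptor of Cxcl12, was at 6.10 and 7.09 CPM in WT vehicle, 7.47 and 8.58 in WT ifetroban, 6.95 and 8.91 in KO vehicle, and 9.74, 9.38 and 9.20 in KO ifetroban. Here the group means ran from 6.60 in WT vehicle to 9.44 in KO ifetroban, and the genotype change was 0.25 ± 0.11 (adjusted p = 0.321). Cxcr2, the receptor of Cxcl1, Cxcl2 and Cxcl5 on neutrophils, was at 3.09 CPM in KO ifetroban 1 and between 0.0833 and 1.08 in every other library. Ccr7 and Cxcr5, which guide lymphocytes and dendritic cells in lymphoid tissue, stayed between 0.121 and 0.667 CPM, with changes of 0.09 ± 0.47 and 0.04 ± 0.51.

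The homeostatic and tissue-homing ligands, some of which are made without inflammation, included 3 of the 5 most abundant members per kilobase and had no gene past the threshold for genotype. Of the 8 tested, 6 had a positive change. Ccl17, Ccl19 and Cxcl13 among the 8 passed the count filter through KO libraries, so this count is a description. Cxcl12, the ligand of Cxcr4 and Ackr3, was at 188 and 306 CPM in WT vehicle, 289 and 277 in WT ifetroban, 233 and 206 in KO vehicle, and 227, 289 and 252 in KO ifetroban. WT vehicle 1 was the lowest library, and the change was -0.16 ± 0.14 (adjusted p = 0.608). Cxcl14, a ligand made by epithelial and stromal cells, was at 16.1 and 22.7 CPM in WT vehicle, 21.3 and 20.7 in WT ifetroban, 49.3 and 30.4 in KO vehicle, and 27.5, 24.9 and 33.1 in KO ifetroban. All KO libraries were above all WT libraries, and the change was 0.71 ± 0.18 (adjusted p = 0.0796). Ccl21a, which draws Ccr7-bearing cells to lymphatic vessels, was at 11.3 and 13.0 CPM in WT vehicle, 15.5 and 12.1 in WT ifetroban, 22.9 and 29.8 in KO vehicle, and 15.8, 15.7 and 18.6 in KO ifetroban. The 2 KO vehicle libraries were the highest, and the change over both treatments was 0.65 ± 0.18 (adjusted p = 0.0952). The Ccl21a row merges 2 loci with near-identical copies, so its level is uncertain. Ccl27a, a skin-homing ligand whose row also merges 2 loci, was at 4.05 and 2.92 CPM in WT vehicle, 3.11 and 2.50 in WT ifetroban, 3.07 and 4.74 in KO vehicle, and 3.42, 2.70 and 2.06 in KO ifetroban, with a change of 0.05 ± 0.21. The low members Ccl17, Ccl19, Ccl25 and Cxcl13 had changes from -0.58 for Cxcl13 to 3.05 for Ccl17. Ccl17, a ligand of Ccr4, was at 0 to 0.0513 CPM in WT and 0.0807 to 0.655 in KO.

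The interferon-inducible ligands of Cxcr3, which attract activated T cells, had estimates of opposite sign, and neither passed. Cxcl9 was at 2.67 and 5.14 CPM in WT vehicle, 3.55 and 3.58 in WT ifetroban, 3.53 and 3.25 in KO vehicle, and 2.34, 1.94 and 2.58 in KO ifetroban, and its change was -0.45 ± 0.21 (adjusted p = 0.320). Cxcl10 lay between 0.0513 CPM in WT vehicle 1 and 1.46 in KO ifetroban 2, with a change of 0.65 ± 0.50 (adjusted p = 0.559). The eosinophil ligands Ccl11 and Ccl24 had changes of -0.01 ± 0.32 and -0.01 ± 0.25. Ccl11, or eotaxin, was at 3.49 and 1.74 CPM in WT vehicle, 2.54 and 0.874 in WT ifetroban, 2.81 and 2.21 in KO vehicle, and 1.97, 2.03 and 1.21 in KO ifetroban. Ccl24, or eotaxin-2, was at 1.80 and 2.35 CPM in WT vehicle, 0.767 and 1.42 in WT ifetroban, 1.52 and 1.57 in KO vehicle, and 1.54, 1.33 and 1.37 in KO ifetroban. For both, WT and KO libraries were interleaved, and Ccl11 shares its 81.23 kb stretch with 4 monocyte ligands.

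Of the atypical receptors, none passed for genotype. Ackr3, which removes Cxcl12, was at 88.1 and 81.9 CPM in WT vehicle, 64.0 and 80.2 in WT ifetroban, 80.2 and 91.6 in KO vehicle, and 67.0, 67.8 and 62.8 in KO ifetroban. Ackr2, which removes inflammatory CC ligands, was at 2.41 and 1.21 CPM in WT vehicle, 1.25 and 1.08 in WT ifetroban, 2.39 and 2.85 in KO vehicle, and 1.78, 2.45 and 2.62 in KO ifetroban. WT vehicle 1 held about the level of the KO libraries, and the genotype change was 0.77 ± 0.24 (adjusted p = 0.147). Ackr4, which removes Ccl19 and Ccl21, was at 6.57 and 3.48 CPM in WT vehicle, 5.49 and 3.54 in WT ifetroban, 4.10 and 10.6 in KO vehicle, and 3.74, 2.19 and 6.58 in KO ifetroban, with its extremes in KO vehicle 2 and KO ifetroban 2. Ackr1, a promiscuous binder on venules and red cells, was between 0.0810 and 0.375 CPM in WT and 0.350 and 0.749 in KO (1.29 ± 0.46, adjusted p = 0.194).

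The 6 members without a test were all under 1 CPM in every library. Ccl22, a dendritic cell ligand of Ccr4, had 0 counts in the WT libraries and 44 in the KO libraries pooled, at least 10.6-fold higher against a floor of 3 counts over the WT group. The KO counts were 8 and 8 with vehicle and 5, 22 and 1 with ifetroban, and the gene was kept through them alone. Ccl5 was at 0 in WT vehicle 1 and between 0.291 and 0.609 CPM elsewhere. Ccl4 ran from 0 in WT ifetroban 2 to 0.983 in KO ifetroban 1, and Cxcr3 and Ccl28 did not exceed 0.304.

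Per kilobase of the longest transcript, Cxcl12 led with a mean level of 44.8 CPM per kb over the 9 libraries. It was followed by Ackr3 at 24.8, Ccl21a at 19.8, Ccl6 at 15.4 and Cxcl14 at 15.0. The scale compares genes only roughly, since the transcripts expressed were not determined and the libraries differ in their length relation. On the same scale Ccl12 rose from 1.30 in WT to 6.25 in KO, and Ccr2 from 0.690 to 2.26. Ccl2 was at 1.72 in WT and 11.7 in KO, and Ccl6 at 7.52 and 21.7.

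**Figure D3:**
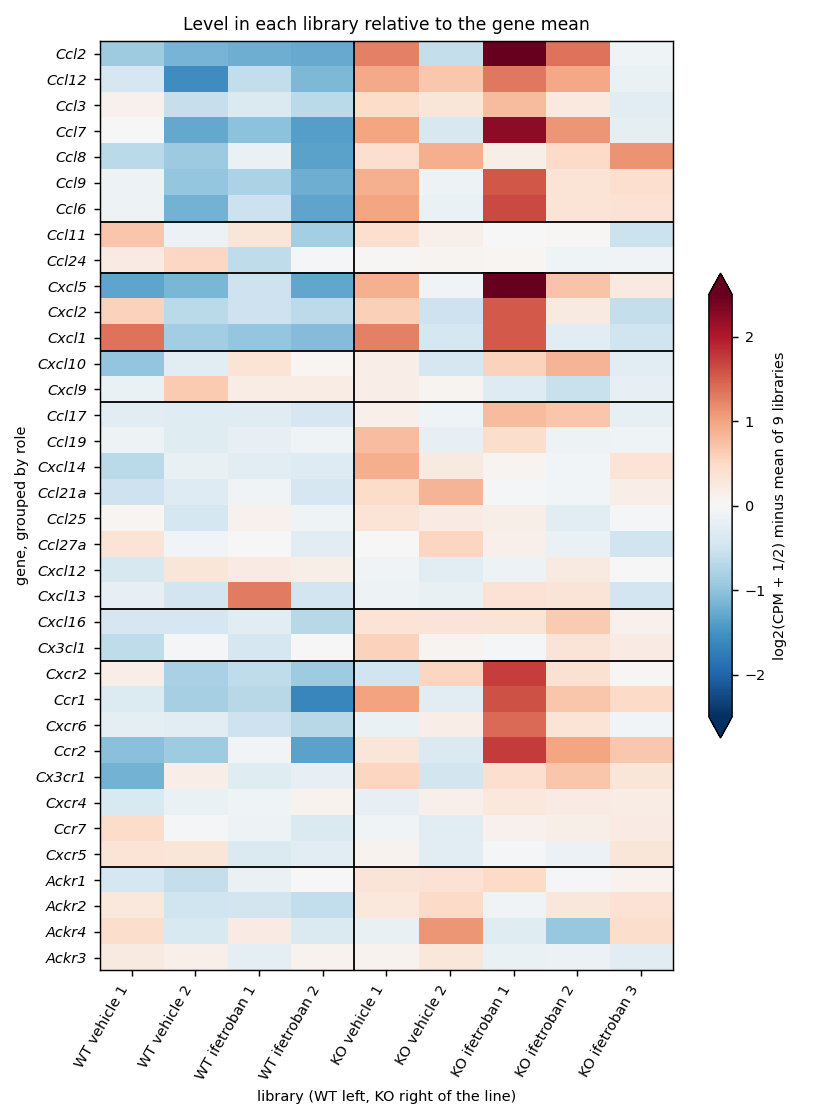
Level of each tested gene (rows, grouped by role between black lines) in each of the 9 libraries (columns, WT left and KO right of the line), as log2(CPM + 0.5) minus the gene's mean over the libraries. KO ifetroban 1 is the highest KO library for 17 of the 36 genes, and WT vehicle 1 is the highest WT library for 19.

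The same comparison within each treatment used fewer libraries and gave 0 members past the threshold with edgeR, while the DESeq2 Wald test called 2 under vehicle, against 0.926% of all genes, and 8 under ifetroban, against 1.87%. Both edgeR counts stayed at 0 with any 1 library left out. Under vehicle, 30 of 36 changes were positive with a median of 0.78, and 8 members, all higher in KO, had an unadjusted p under 0.05, or 22.2%, against 7.9% of all genes. Of all genes 0.0515% were past the threshold there. The smallest p among higher members were those of Ccl21a (1.12 ± 0.19, adjusted p = 0.122), Cxcl14 (1.04 ± 0.25, 0.275), Ackr1 (2.40 ± 0.64, 0.322) and Cxcl16 (0.78 ± 0.22, 0.352). Among lower members they were those of Ccr7 (-0.93 ± 0.57), Cxcr5 (-0.97 ± 0.60), Ccl24 (-0.43 ± 0.33) and Cxcl12 (-0.17 ± 0.22), with adjusted p from 0.777 to 0.906. For 16 members both KO vehicle libraries were above both WT vehicle libraries, or 44.4%, against 18.3% of all genes, and 3 (Ccl24, Ccr7 and Cxcr5) were below, against 17.6%. The 16 include Ackr1, Ccl3, Ccl17, Cxcl5, Cxcl13 and Cxcr6, which passed the count filter through KO libraries, so their share is a description. Cxcl13 had counts of 5 and 4 in KO vehicle and 3 and 1 in WT vehicle.

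Under ifetroban, 29 of 36 changes were positive with a median of 0.94, and 16 members had an unadjusted p under 0.05, 15 of them higher in KO, or 44.4%, against 9.36% of all genes. Of all genes 0.0386% were past the threshold. The smallest p among higher members were those of Cxcl16 (0.91 ± 0.20, adjusted p = 0.139), Ccr1 (2.56 ± 0.60, 0.160), Ccr2 (1.88 ± 0.45, 0.164) and Ccl9 (1.97 ± 0.48, 0.173). Among lower members they were those of Cxcl9 (-0.64 ± 0.28), Cxcl13 (-1.14 ± 1.02), Ackr3 (-0.13 ± 0.13) and Cxcl12 (-0.15 ± 0.20), with adjusted p from 0.520 to 0.850. The 3 KO ifetroban libraries lay above both WT ifetroban libraries for 22 members, or 61.1%, against 14.0% of all genes, and below them for Cxcl9 alone, against 15.0%. The 22 include Ccl3, Ccl17, Ccr7, Cxcl5, Cxcr2 and Cxcr6, which passed the count filter through KO libraries, so their share is a description.

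The 5 genes that rose over both treatments had positive estimates within each. The estimate for Ccl12 was 2.33 under vehicle and 2.22 under ifetroban, with Ccl8 at 2.04 and 1.73, and Cxcl5 at 3.12 and 3.33. For Cxcl16 it was 0.78 and 0.91 and for Ccr2 1.08 and 1.88, and none of these 10 estimates passed the threshold. The genotype change was also computed within the libraries of 1 length relation. Among the 4 libraries with a negative relation it was 1.56 ± 0.35 under vehicle for Ccl12, 1.83 ± 0.45 for Ccl8, 3.51 ± 0.91 for Cxcl5, 0.79 ± 0.17 for Cxcl16 and 1.18 ± 0.35 for Ccr2, with 0 of the 5 past the threshold. That comparison holds a single WT library, WT vehicle 1, whose Sgcd lies in the KO range, so its SE rests on the 2 KO vehicle libraries. Among those with a positive relation, it was 1.89 ± 0.54, 1.97 ± 0.62, 2.15 ± 0.58, 0.95 ± 0.23 and 1.52 ± 0.47 under ifetroban in the same order, with 0 of the 5 past it.

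**Figure D4:**
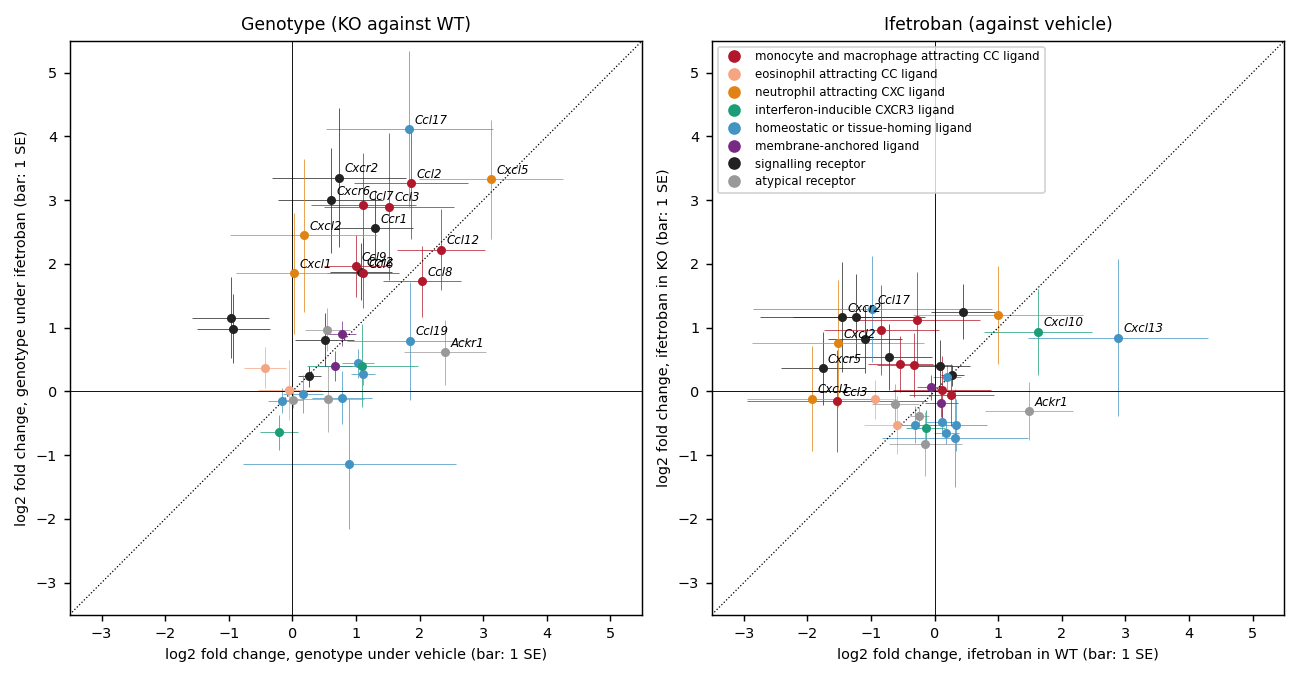
Left, log2 change of KO against WT under vehicle (x axis) and under ifetroban (y axis); right, log2 change of ifetroban against vehicle in WT (x axis) and in KO (y axis). Points are the 36 tested genes coloured by role, bars are 1 SE and the dotted line marks equal change; on the left most genes lie right of and above 0, while on the right they lie on both sides of both axes.

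Ifetroban against vehicle gave 0 members past the threshold in KO, in WT and over both genotypes, as for all genes (0% in each, edgeR quasi-likelihood test), and the DESeq2 Wald test and limma-voom also called 0 members in each. In KO, 3 members had an unadjusted p under 0.05, or 8.33%, against 3.96% of all genes. They were Ccl21a (-0.66 ± 0.17), Ackr3 (-0.38 ± 0.13) and Ccr2 (1.25 ± 0.43), each with an adjusted p of 0.862. For Ccl21a the KO libraries with vehicle were at 22.9 and 29.8 CPM and those with ifetroban at 15.8, 15.7 and 18.6, against 11.3 to 15.5 in WT. For Ccr2 the 3 ifetroban libraries were all above the 2 vehicle libraries. After these the smallest p were those of Cxcr6 (1.17 ± 0.67), Cxcl5 (1.20 ± 0.77) and Ccr7 (0.82 ± 0.52) among higher members and of Cxcl14 (-0.48 ± 0.22) and Cxcl9 (-0.57 ± 0.28) among lower members. The KO libraries separated by treatment for 8 members, with Ccr2, Ccr7 and Cxcr4 higher under ifetroban, against 10.4% of all genes, and Ackr3, Ccl11, Ccl21a, Ccl25 and Cxcl9 lower, against 9.76%. With KO ifetroban 1 counted as vehicle, as its treatment field has it, the change of Ccr2 was 0.010 ± 0.62 and its 2 groups overlapped, the change of Cxcl5 was -1.19 and that of Cxcr6 was -0.76.

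In WT, 2 members had an unadjusted p under 0.05, Ccl24 (-0.93 ± 0.34) and Cxcr5 (-1.76 ± 0.66), or 5.56%, against 2.25% of all genes, with an adjusted p of 0.881. The next lower members were Cxcl1 (-1.93 ± 1.01) and Ccr7 (-1.09 ± 0.59), and the higher members with the smallest p were Ackr1 (1.48 ± 0.69), Cxcl13 (2.89 ± 1.42), Cxcl10 (1.63 ± 0.84) and Cxcr4 (0.28 ± 0.18). For 3 members both WT ifetroban libraries were above both WT vehicle libraries, against 17.6% of all genes, and for 8 they were below, against 13.8%. The Cxcl13 value rests on WT ifetroban 1, at 1.37 CPM with 0.0405 to 0.154 in the other WT libraries, and was -1.06 without it. Of the monocyte and macrophage ligands, 2 of 7 had a positive estimate in WT and 5 of 7 in KO. With KO ifetroban 1 counted as vehicle it was 1 of 7 in KO, Ccl8.

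Over both genotypes, 4 members had an unadjusted p under 0.05, or 11.1%, against 7.96% of all genes. Ackr3 had -0.32 ± 0.09, Ccr2 0.92 ± 0.34, Cxcl10 1.20 ± 0.51 and Cxcr4 0.26 ± 0.11, each with an adjusted p of 0.545. The other values by the same rule were those of Cxcl13 (1.73 ± 0.93) among higher members and Ccl27a (-0.43 ± 0.21), Ccl24 (-0.49 ± 0.25) and Cxcl9 (-0.37 ± 0.21) among lower members. For the monocyte ligands Ccl12, Ccl8 and Ccl2 the change was 0.05 ± 0.42, 0.06 ± 0.37 and 0.63 ± 0.64.

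The difference between the ifetroban effect in KO and in WT, the interaction, also had 0 members past the threshold, as for all genes (0%), and DESeq2 and limma-voom called 0 members. At an unadjusted p under 0.05 there were 3 members, or 8.33%, against 1.92% of all genes. Ccl21a had -0.85 ± 0.26, Ccr7 1.91 ± 0.79 and Cxcr5 2.12 ± 0.88, with adjusted p of 1.00. The next in order were Cxcr6 (2.40 ± 1.20) and Ccl24 (0.80 ± 0.46) on the positive side and Ackr1 (-1.79 ± 0.83), Cxcl14 (-0.59 ± 0.34) and Ccl25 (-0.88 ± 0.63) on the negative side.

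Genes of the chemokine pathway under other symbols were read from a list of 60, of which 57 were in the data and 54 were tested. They cover ligands such as Pf4 and Mif, G protein subunits, arrestins and kinases, inducers such as Tnf and Il1b, and proteases that trim chemokines. Over both treatments 46 of 54 had a positive genotype change with a median of 0.25, against 47.0% of all genes and a median of -0.02, and 6 rose, where 2.06% of all genes did. The 6 were Fgr, Cd74, Mmp12, Arrb2, Rac2 and Relb. Fgr was at 0.103 to 0.363 CPM in WT and at 1.00 to 4.21 in KO. It passed the count filter through its KO libraries, so its estimates and the counts over this list are a description. Fgr, a Src-family kinase of myeloid cells, had 2.89 ± 0.41 (adjusted p = 0.00901). Cd74, which also serves as a receptor of Mif, had 0.76 ± 0.14 (0.0217), and Mmp12, the macrophage elastase, 2.21 ± 0.40 (0.0217). Under vehicle 0 of 54 passed, with Fgr at 2.68 ± 0.68 (adjusted p = 0.292) and Vav1 at 1.17 ± 0.34 (0.375), and under ifetroban 0 of 54 passed, with Fgr at 3.01 ± 0.55 (0.0892) and Arrb2 at 0.74 ± 0.16 (0.138). The part of macrophage content in these values was not tested.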

How the data were processed

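RNA was sequenced in 9 libraries of left ventricle, and the authors deposited expected counts per gene, of which 28.2% were not whole numbers. The submitters' processing notes name bcl2fastq, STAR, Partek and mm10, while the counting rule and the strand setting were not given in the sources used here. Gene ends are printed with 1 subtracted, which matched 15573 of 19704 shared symbols to GENCODE M21, against 70 as deposited.

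Counts were rounded, filtered with filterByExpr by group (minimum count 10, about 0.411 CPM), which left 15549 genes, and scaled with TMM. The quasi-likelihood test of edgeR 4.0.16 (R 4.3.3, robust) was fitted with 4 group means, and with genotype and treatment as additive terms for effects over the other factor. Adjusted p-values are Benjamini-Hochberg values over all genes tested. SE is the log2 change divided by the square root of F. The biological coefficient of variation was 0.176. Scripts were tested on simulated data. Replicates differed by 11.4 to 66.9 times counting noise (chi-square per degree of freedom).

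Named were members with a mean of at least 1 CPM, members past the threshold, or else the 4 smallest p in each direction, and by the same kind of rule 2 or 3 pathway genes. Of the genes with a matching symbol, 1 is not reported here and stays out of all counts of members. Members, roles, motifs and lists were chosen with earlier results of these data known. Alternatives were DESeq2 1.42.0, its size factors, limma-voom (limma 3.58.1), other filters, only the groups compared, a replicate block, KO ifetroban 1 counted as vehicle, the length relation as a term or a split, and each library left out.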

Additional observations from a re-analysis of the deposited data

Results flagged for a closer look

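In each of 82 sets of libraries, the 4 WT or the 5 KO libraries for 1 kept member, the highest and lowest library were set against the nearest other library relative to the whole range. The cut-offs mark about 1 set in 20 by chance where values are normally distributed. Low CPM values may not be, and the sets share the same libraries, so that rate may not hold here. Marked were 11 sets, 5 in WT vehicle 1, 5 in KO ifetroban 1 and 1 in WT ifetroban 1.

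WT vehicle 1 stood above the other WT libraries for the neutrophil ligands Cxcl1, at 9.64 CPM with 1.37 to 1.66 in the others, and Cxcl2, at 1.08 with 0.162 to 0.242. It was also far above them for the monocyte ligand Ccl7, at 3.80 with 1.17 to 1.62, and for the scavenger Ackr2, at 2.41 with 1.08 to 1.25. It was the only WT library with 0 for Ccl5, which had 0.291 to 0.324 in the others. The erythroid and platelet markers summed to 1008 CPM in this library and to 100.1 to 346 in the other WT libraries.

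KO ifetroban 1 stood above the other KO libraries for Cxcl5, at 8.99 CPM with 1.04 to 2.54 in the others, and for Cxcl3, at 0.983 with 0.0402 to 0.190. The same held for the receptors Cxcr2, at 3.09 with 0.266 to 1.08, and Cxcr6, at 2.01 with 0.342 to 0.699, and for Ccl5, at 0.609 with 0.323 to 0.402. Neutrophil markers summed to 24.4 CPM in this library and to 8.88 to 14.7 in the other KO libraries. The part of blood or neutrophil content in these values was not tested.

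WT ifetroban 1 held Cxcl13, the B cell ligand, at 1.37 CPM, with 0.0405 to 0.154 in the other WT libraries.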

How the results depend on the processing

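Of the 18 alternatives tried for the 5 genes higher in KO over both treatments, Cxcl16 passed in 16, Ccl8 in 12, Ccl12 in 11, Cxcl5 in 9 and Ccr2 in 6, and all values stayed positive. With 1 library left out the count of 5 ran from 0 to 6. It was 11 with DESeq2, 2 with limma-voom, 3 with no low-count filter and 11 with a replicate block, and over all genes the count of 363 ran from 51 to 896. Under vehicle, 0 members became 2 with DESeq2, 1 with the block, 1 with the length relation as a term, 1 in the libraries with a negative relation and 3 with WT vehicle 1 and KO ifetroban 1 left out, of which Ccl12 and Ccl21a were higher and Cxcl12 lower in KO, with a single WT vehicle library. Under ifetroban, 0 became 8 with DESeq2, 8 with the block and 1 in the libraries with a positive relation. For ifetroban in KO, 0 became 1, Ccl21a, with those 2 libraries left out. With those 2 libraries left out, the only libraries with a negative length relation are those of KO vehicle, so group and relation cannot be told apart. The cause of these shifts was not tested.

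Over all genes, the 8 past the threshold under vehicle ranged from 2 to 1541 and the 6 under ifetroban from 2 to 290, and the 1541 (of 15999 genes) came with those 2 libraries left out. The same choice raised the counts for ifetroban in KO and for the interaction above the 0 reported. It left a single WT vehicle library, and KO vehicle as the only group with a negative length relation. For genotype under vehicle, ifetroban in KO and the interaction, KO vehicle therefore cannot be told apart from that relation. The correlation of same-numbered deviations ran from -0.06 to 0.50 over 12 pairs and exceeded 0.1 only between WT vehicle and KO ifetroban. In a group of 2 libraries the deviations mirror each other, so some of the 12 values are repeats. They cannot decide whether replicate numbers pair the libraries. The sign reversed for Cxcl12 under vehicle, which was 0.088 with the length term, 0.23 in the negative-relation libraries and -0.47 to 0.22 with 1 library left out (0.22 without WT vehicle 2). With 1 library left out, Cxcl13 ran from -2.09 to 2.79 under ifetroban (2.79 without WT ifetroban 1) and from -1.06 to 3.96 for ifetroban in WT (-1.06 without WT ifetroban 1), and Ackr3 ran from -0.29 to 0.039 under ifetroban (0.039 without WT ifetroban 2). For ifetroban in KO, Cxcr6 (-0.76) and Cxcl5 (-1.19) reversed with KO ifetroban 1 counted as vehicle. Members under 1 CPM rest on few reads, and differences in them may not be detectable at this depth.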
